A study of Mus musculus with 24 samples.

Results

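Messenger RNA of 10 core circadian clock and clock output genes was followed in the livers of fasted mice. The genes were Arntl (also known as Bmal1), Npas2, Clock, Per1, Per2, Per3, Cry1, Dbp, Tef and Nfil3. They were taken by name from a table of read counts, and all 10 were found among its 35275 genes. The data were RNA-seq of 24 whole-liver libraries, with 4 libraries in each of 6 groups, from male mice of the C57BL/6 strain that were 8 to 10 weeks of age and had been without food for 24 h. The groups were control mice, labelled wild type, mice labelled Tsc1 L-/-, Cpt2 L-/-, Tsc1Cpt2 L-/- (here DKO), PPAR-a KO (here Ppara KO) and Cpt2L-/- Ppara KO. Per the study's methods, control mice were littermates with floxed alleles of both Tsc1 and Cpt2, and the liver deletions were driven by Albumin-Cre. Those methods do not describe the mice that lack Ppara. Albumin-Cre acts mainly in hepatocytes, so other liver cells may keep intact genes. Whole liver was sequenced, so fewer cells of a type and less RNA per cell cannot be told apart.

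The circadian clock is a feedback loop of transcription that turns about once a day in nearly every cell. Arntl pairs with Clock, or with its relative Npas2, and the pair switches on genes that carry E-box sequences, among them the Per and Cry genes, whose proteins return to the nucleus and silence the pair. A second loop runs through the nuclear receptors Nr1d1 and Nr1d2, which repress Arntl, Npas2, Clock and Nfil3 through elements that the Ror receptors activate. Dbp, Tef and Hlf activate, and Nfil3 represses, genes that carry D-box sequences, and this output layer times much of the daily rhythm of liver metabolism. Transcripts of these genes swing over the day, with Arntl and Dbp in nearly opposite phase, and feeding is a strong time signal for the liver clock. Per the study's methods, fasts began and ended in mid-afternoon, and the labels give no hour for single libraries.

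RefSeq promoter windows, from 250 bases before to 50 bases after each annotated start in GRCm38.p6, were matched by symbol to 9 of the 10 genes. Both strands were searched for the E-box CACGTG, the D-box spelled TTATGTAA, TTATGCAA or TTACGTAA, and the Ror and Nr1d element (RORE) spelled ANTAGGTCA or ANTGGGTCA. Of 32851 mouse promoter windows of this length, 7.15% held the E-box, 1.78% the D-box and 1.45% the RORE. The windows that carried matches in the genes the results turn on are printed 5′ to 3′ on the strand of the gene, with the matched bases in capitals. Arntl and Nfil3 are shown for the RORE, Per1 for an E-box and a D-box, Per3 for a pair of D-boxes and Tef for an E-box.
Arntl, second start, chr7:113207261-113207560, plus strand: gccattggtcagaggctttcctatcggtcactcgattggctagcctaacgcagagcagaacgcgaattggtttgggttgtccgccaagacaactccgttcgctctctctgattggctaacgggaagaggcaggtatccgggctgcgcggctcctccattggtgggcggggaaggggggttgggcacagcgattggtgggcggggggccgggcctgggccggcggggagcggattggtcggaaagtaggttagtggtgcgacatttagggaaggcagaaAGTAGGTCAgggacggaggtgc
Nfil3, chr13:52980990-52981289, minus strand: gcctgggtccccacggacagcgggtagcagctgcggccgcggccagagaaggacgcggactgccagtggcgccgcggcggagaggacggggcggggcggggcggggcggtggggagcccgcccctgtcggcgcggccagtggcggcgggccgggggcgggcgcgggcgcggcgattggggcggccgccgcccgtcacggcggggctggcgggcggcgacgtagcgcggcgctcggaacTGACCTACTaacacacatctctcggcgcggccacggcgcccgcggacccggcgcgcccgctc
Per1, first start, chr11:69098699-69098998, plus strand: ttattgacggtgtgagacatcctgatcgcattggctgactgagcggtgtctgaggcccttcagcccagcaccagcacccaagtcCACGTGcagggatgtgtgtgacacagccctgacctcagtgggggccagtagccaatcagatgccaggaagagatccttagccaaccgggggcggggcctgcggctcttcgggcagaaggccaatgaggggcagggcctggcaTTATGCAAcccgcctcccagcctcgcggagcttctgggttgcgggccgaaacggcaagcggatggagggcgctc
Per3, chr4:151044616-151044915, minus strand: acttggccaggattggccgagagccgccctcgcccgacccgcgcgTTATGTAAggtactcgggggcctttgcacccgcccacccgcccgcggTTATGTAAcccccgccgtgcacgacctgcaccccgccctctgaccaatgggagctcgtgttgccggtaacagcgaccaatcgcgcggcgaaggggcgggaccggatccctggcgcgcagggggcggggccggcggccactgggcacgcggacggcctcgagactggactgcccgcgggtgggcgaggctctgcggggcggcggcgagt
Tef, first start, chr15:81802423-81802722, plus strand: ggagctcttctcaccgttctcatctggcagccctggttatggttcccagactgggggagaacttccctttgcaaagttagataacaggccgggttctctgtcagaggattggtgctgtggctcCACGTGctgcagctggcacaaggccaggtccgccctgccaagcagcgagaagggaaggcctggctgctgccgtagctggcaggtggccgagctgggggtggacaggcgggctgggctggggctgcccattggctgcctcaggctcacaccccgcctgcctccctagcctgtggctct
The RORE of Arntl began 29 bases after its start. That of Nfil3 lay on the strand opposite to the gene, 12 bases before the start (position -12). Per1 had its E-box at -166 and its D-box at -24, Per3 its D-boxes at -205 and -158, and Tef an E-box at -127. An E-box was also found at -60 in Cry1 and at -138 of the second start of Tef. No match to these letters was found in the windows of Npas2, Clock and Dbp.

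Each library held 14470968 to 20371204 counted reads. In the comparisons, counts went through edgeR's quasi-likelihood test with Benjamini-Hochberg adjustment over every gene tested, and an adjusted p under 0.05 was taken as a change. The deleted genes were examined first. Levels are given in CPM, the count relative to a TMM-adjusted library total, as the mean ± SD of 4 libraries. Tsc1 was at 38.4 ± 1.32 CPM in control, 24.5 ± 4.55 in Tsc1 L-/- and 16.4 ± 1.24 in DKO livers. Ppara was at 258 ± 28.5 CPM in control, 27.4 ± 16.3 in Ppara KO and 50.7 ± 27.4 in Cpt2 L-/- Ppara KO livers. Cpt2 was at 98.6 ± 7.04 CPM in control and 91.6 ± 10.4 in the libraries labelled Cpt2 L-/-, 96.1 ± 17.5 in DKO, 57.7 ± 43.6 in Cpt2 L-/- Ppara KO and 58.3 ± 24.8 in Ppara KO livers. Replicate 1 of Cpt2 L-/- Ppara KO was at 122.8 CPM of Cpt2, above the control libraries, and replicate 1 of Ppara KO at 94.8 CPM. Counts over a whole gene do not resolve the loss of an exon, so Cpt2 checked none of the labels that name its deletion. Cd1d2 and Rps3a3, chosen after their values were seen, split the libraries by another line. Cd1d2 had 211 to 1021 counts in the 12 control, Tsc1 L-/- and DKO libraries and 1 to 13 in the 12 libraries labelled Cpt2 L-/-, Ppara KO and Cpt2 L-/- Ppara KO. Rps3a3 had 549 to 1798 counts in the first 12 and 3 to 48 in the second. The comparisons of Cpt2 L-/- or Ppara KO with control, of DKO with Cpt2 L-/-, and both interactions, therefore cross a difference that the labels do not name, and its part in the results was not tested. The other pairwise comparisons stay on 1 side of it.

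Compared per length of transcript, in FPKM, the 10 genes spanned a wide range of levels. The median over 24 livers was highest for Tef at 46.3 FPKM, followed by Dbp at 29.5, Per1 at 18.6 and Nfil3 at 7.97. It was 5.53 for Per2, 5.16 for Clock, 3.70 for Per3, 2.67 for Cry1, 1.44 for Arntl and 0.0918 for Npas2. The order differed between groups. In Ppara KO livers the mean of Dbp, 9.60 FPKM, was below those of Per1 (31.6) and Nfil3 (13.2), and that of Arntl (7.64) was above that of Per3 (2.83). In control livers Per3 (6.69) was above Clock (4.16). Of the 9 genes with reads in every library, Arntl spanned the widest range of CPM, 28.1-fold between its lowest and highest library, and Dbp was next at 13.2-fold. Clock and Tef spanned the narrowest, at 2.96-fold and 3.45-fold. When the 6 group means of each gene were put in order, 4 of 50 neighbouring pairs lay farther apart than the larger of their SDs. These were Arntl in Ppara KO above Cpt2 L-/- Ppara KO, Dbp in Ppara KO below DKO, Cry1 in Tsc1 L-/- above control and Tef in control above Cpt2 L-/-.

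**Figure D1:**
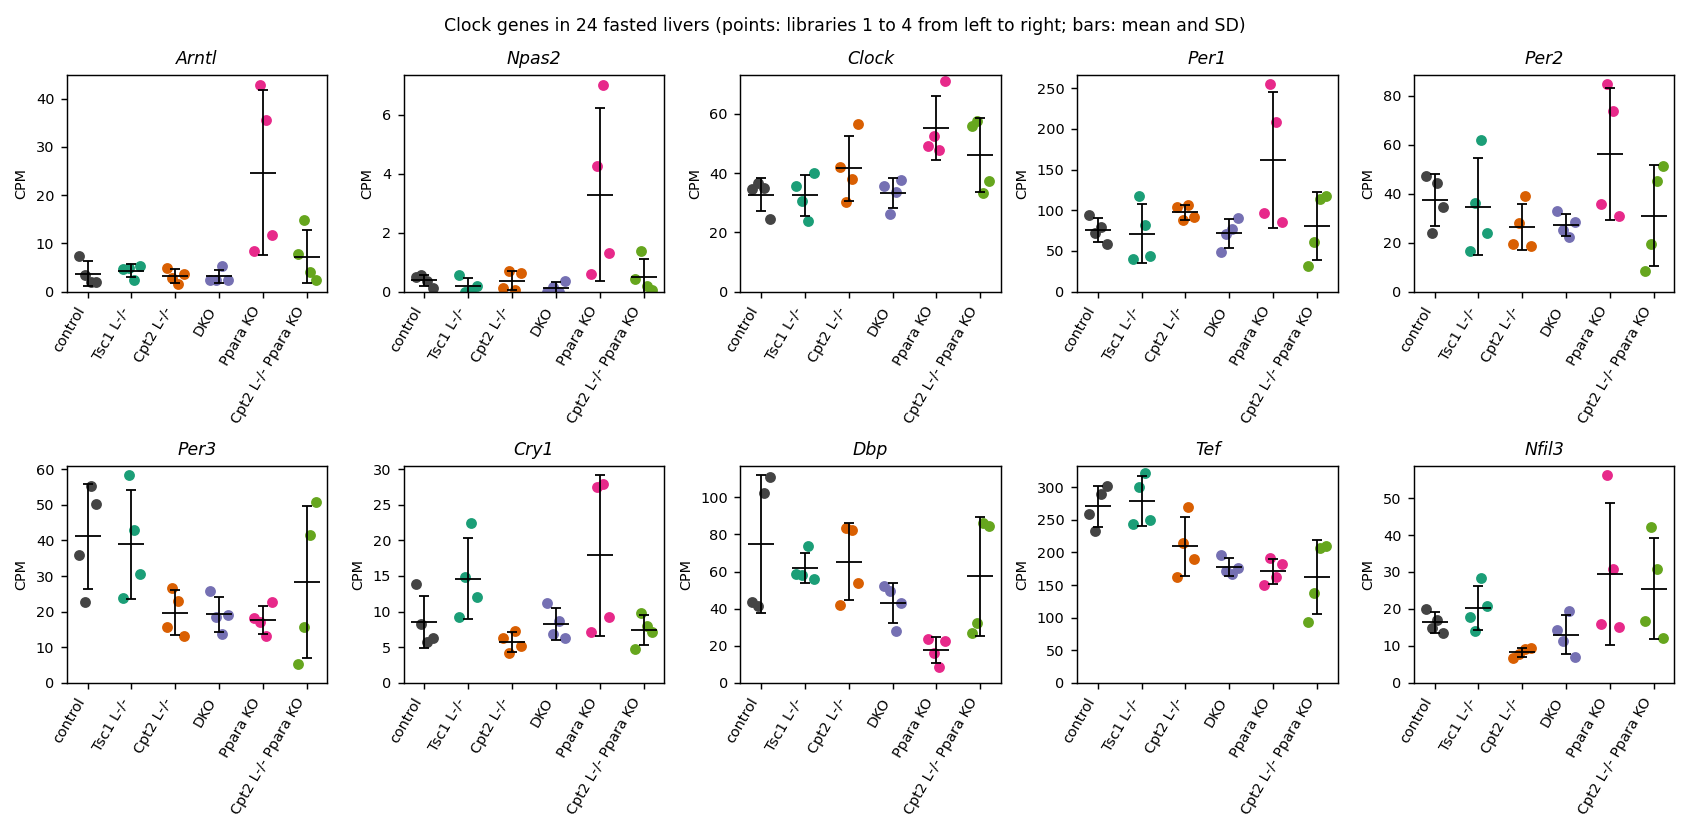
CPM of the 10 genes (vertical axes, linear, from 0) in each library of the 6 groups, with the libraries of a group drawn from replicate 1 on the left to replicate 4 on the right, and bars for the mean and SD. Arntl lay between 8.42 and 42.9 CPM in the 4 Ppara KO livers and between 1.92 and 7.42 in the 4 control livers.

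The pairwise comparison with the most changes among these genes was Ppara KO against control livers, which asks how the clock genes of the fasted liver stand without the fatty acid receptor Ppara. Arntl, Npas2, Clock and Per1 were higher, Dbp and Tef were lower, and the other 4 did not pass the test. Thus 6 of 10 passed, 4 higher and 2 lower, where 29% of all 13615 genes tested passed, 15.9% higher and 13.2% lower. The median log2 fold change was 0.79 over the 10 genes and 0.01 over all genes tested. Npas2 passed the filter on low counts only through the Ppara KO libraries, and without it 5 of 9 genes passed.

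Arntl, the partner that every activating complex of the clock needs, was at 8.42, 42.9, 35.5 and 11.8 CPM in Ppara KO replicates 1 to 4. In control livers it was at 7.42, 3.37, 2.004 and 1.92 CPM. All 4 Ppara KO livers were above all 4 control livers, but replicate 1 of each group lay close to the other, and Ppara KO replicates 2 and 3 stood far above the remaining pair. These replicates were also the most alike of their group over all genes, with a chi-square per degree of freedom of 33.2 between their counts against 109.6 to 162.7 for the other Ppara KO pairs. The log2 fold change was 2.73 (SE 0.63, adjusted p = 0.00444 by edgeR), and the call held in each alternative analysis. Npas2, which can replace Clock as the partner of Arntl, had 13, 54, 101 and 19 counts in Ppara KO and 8, 8, 7 and 2 counts in control livers. It was high in the same pair of Ppara KO livers, and in the other 4 groups no library had more than 20 counts. Its log2 fold change of 3.08 (SE 0.87, adjusted p = 0.0138 by edgeR) rests on these few reads, and without Ppara KO replicate 3 it was 2.39 (adjusted p = 0.0652, range over the alternatives 0.00171 to 0.0652). Clock, a histone acetyltransferase and the usual partner of Arntl, was at 49.2, 52.7, 48.0 and 71.0 CPM in Ppara KO livers and at 34.6, 36.6, 35.0 and 24.4 CPM in control livers. The groups did not overlap, and the log2 fold change was 0.75 (SE 0.22, adjusted p = 0.0179 by edgeR). Clock lost its call without control replicate 4 (adjusted p = 0.0661) or without Ppara KO replicate 4 (adjusted p = 0.0533).

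Of the repressors, Per1, an early-responding Per gene that glucocorticoids and cAMP also induce, was at 96.1, 256, 208 and 85.9 CPM in Ppara KO and at 93.7, 71.9, 79.4 and 58.4 CPM in control livers. Replicates 2 and 3 of Ppara KO were again high, replicate 1 lay just above the highest control liver, replicate 4 overlapped control, and the log2 fold change was 1.08 (SE 0.37, adjusted p = 0.0359 by edgeR). The call of Per1 was lost without Ppara KO replicate 2 (adjusted p = 0.136) or 3 (0.101) and without control replicate 2 (0.0762), 3 (0.0672) or 4 (0.0981). Cry1, the repressor that acts late in the cycle, showed the same uneven group, at 7.12, 27.4, 27.9 and 9.19 CPM in Ppara KO against 5.70 to 13.8 CPM in control livers. Its log2 fold change of 1.05 did not pass (adjusted p = 0.0540 by edgeR). Cry1 did pass by DESeq2 (0.0291), with all 24 libraries in one fit (0.0356) and without control replicate 1 (0.0238) or Ppara KO replicate 1 (0.0121) or 4 (0.0231). Per2, another repressor of the core loop, was at 35.7, 84.9, 74.0 and 31.0 CPM in Ppara KO against 24.0 to 47.4 CPM in control livers (log2 fold change 0.57, adjusted p = 0.367 by edgeR). Per3, a Per gene that the core loop can do without, went the other way, at 18.3, 17.0, 13.03 and 22.6 CPM against 36.0, 22.7, 55.4 and 50.3 CPM in control. The groups of Per3 touched without overlapping, and the log2 fold change of -1.22 did not pass (adjusted p = 0.0687 by edgeR). Per3 did pass by DESeq2 (0.0286), with all 24 libraries in one fit (0.0460), in a fit of the 2 groups (0.0110) and without control replicate 2 (0.0484) or Cpt2 L-/- Ppara KO replicate 1 (0.0137). In all, 6 of the 10 genes had groups that did not overlap, Arntl, Npas2, Clock, Per3, Dbp and Tef, where 29.9% of all genes tested had such groups, and without Npas2 the count was 5 of 9.

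Dbp, an output activator with a steep daily rhythm in liver, was at 23.8, 15.9, 8.39 and 22.6 CPM in Ppara KO livers. In control livers it was at 43.4, 41.7, 102 and 111 CPM. Every Ppara KO liver was below every control liver, and within Ppara KO the lowest values fell in replicates 2 and 3, where Arntl was highest. The log2 fold change was -2.08 (SE 0.45, adjusted p = 0.00272 by edgeR), and this call also held in each alternative. Tef, its relative with a flatter rhythm, was at 149, 192, 162 and 182 CPM in Ppara KO and at 259, 232, 290 and 302 CPM in control livers. Tef did not overlap between the groups, with a log2 fold change of -0.67 (SE 0.23, adjusted p = 0.0372 by edgeR). Leaving out any 1 of 7 libraries raised the adjusted p of Tef above the threshold, namely control replicate 1 (0.0606), 3 (0.0817) or 4 (0.0910) and Ppara KO replicate 1 (0.0736), 2 (0.0505), 3 (0.0907) or 4 (0.0521). Nfil3, the repressor at D-boxes, was at 15.9, 56.2, 30.7 and 15.2 CPM against 13.5 to 19.9 CPM in control livers, and its log2 fold change of 0.83 did not pass (adjusted p = 0.110 by edgeR), though without Ppara KO replicate 4 it did (0.0462). The gene bodies of Dbp and Sphk2 overlap on opposite strands, and those of Per3 and Camta1 on the same strand, and the strand setting of the counting is not given in the sources used here, so some reads of these pairs may be shared. The genes Npas2 and Tef overlap pseudogenes and a noncoding RNA gene and carry the same doubt.

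**Figure D2:**
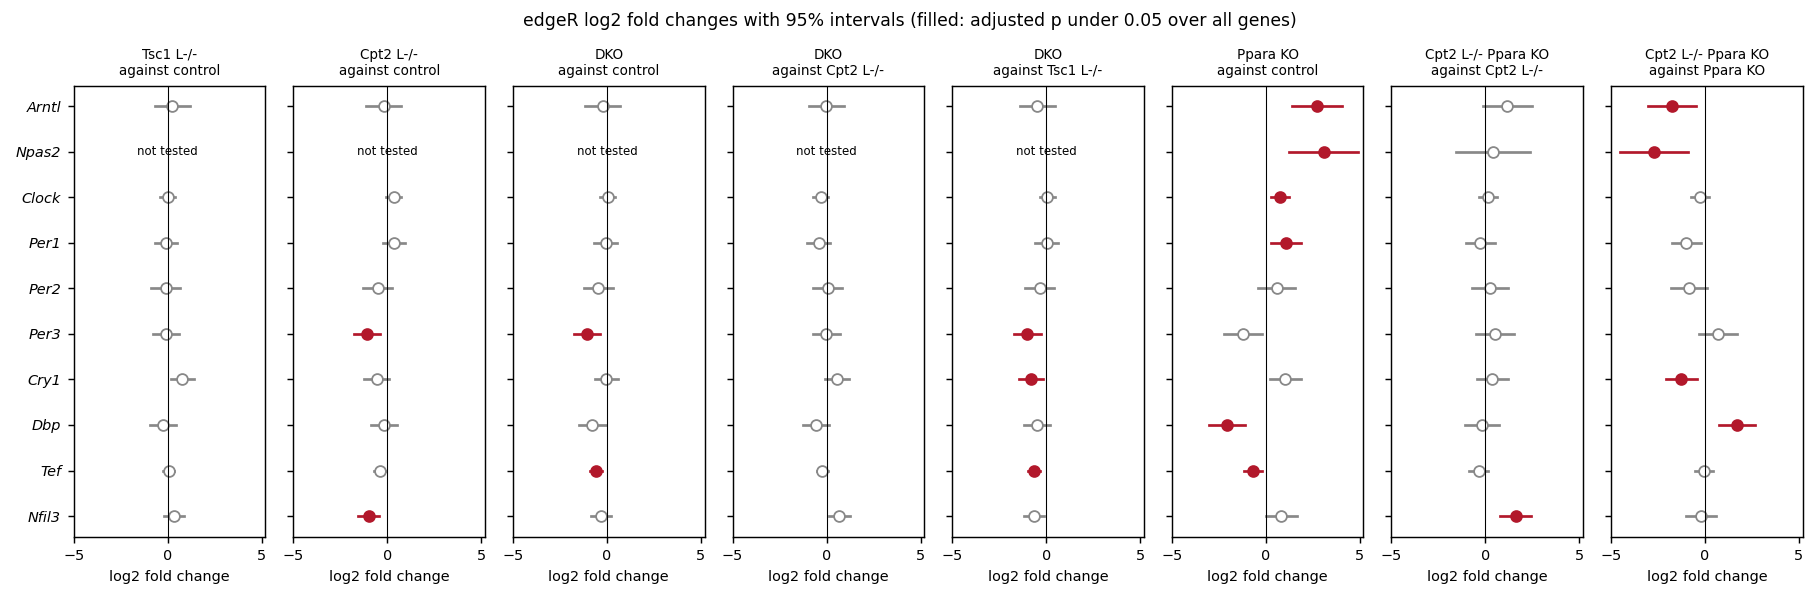
Log2 fold changes of the 10 genes (horizontal axes) with 95% intervals in 8 pairwise comparisons, from edgeR, with filled points for an adjusted p under 0.05. The comparison of Ppara KO with control has the most filled points, 6 of 10, and Npas2 was not tested in the 5 comparisons on the left.

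Since Ppara KO and control livers differed in Cd1d2 and Rps3a3, Ppara KO was also set against the libraries labelled Cpt2 L-/-, which lie on its side of that split but differ in Cpt2 as well. This comparison was added after the split was seen. Of 10 genes, 4 were higher and 1 was lower, against 18.2% of all genes passing in either direction, and without Npas2 the count was 4 of 9. Arntl kept a log2 fold change of 2.93 (SE 0.64, adjusted p = 0.00426 by edgeR) and Dbp one of -1.88 (SE 0.45, adjusted p = 0.00733 by edgeR), both without overlap. Npas2 (log2 fold change 3.12, adjusted p = 0.0186 by edgeR), Cry1 (1.63, 0.00898) and Nfil3 (1.83, 0.00356) were also higher. Clock (0.41, adjusted p = 0.227), Per1 (0.72, 0.189) and Tef (-0.29, 0.433) did not pass. Neither did Per2 (1.09, 0.114) nor Per3, whose log2 fold change was -0.15 here (0.871) against -1.22 with control as the reference.

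All 5 hepatocyte markers were above 0 in every library, and their summed level was 33100 to 37300 FPKM in Ppara KO and 36200 to 39100 FPKM in control livers. In Ppara KO livers the 5 endothelial markers summed to 56.6 to 70.6 FPKM, against 50.2 to 53.6 FPKM in control. The sums of 5 of 6 macrophage markers found in the table were 85.8 to 135 FPKM in Ppara KO and 85.6 to 135 FPKM in control. Within these lists single markers changed, Cd68 from 8.53 ± 1.55 to 17.1 ± 7.85 CPM (adjusted p = 0.0213 by edgeR) and Vsig4 from 21.8 ± 5.22 to 12.8 ± 2.13 CPM (0.0151) among the macrophage markers. The endothelial marker Lyve1 was higher by 1.81 on the log2 scale (0.00204). Of the 5 cholangiocyte markers Sox9 rose from 3.26 ± 0.95 to 16.4 ± 11.4 CPM (0.00118), and of the 5 stellate cell markers Col3a1 fell from 31.9 ± 13.01 to 8.15 ± 4.20 CPM (0.00127). Lymphocyte markers, 5 in all, summed to 0.443 to 1.22 FPKM in Ppara KO and 1.30 to 4.21 FPKM in control livers. The part of cell composition in the clock gene values was not tested.

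The livers labelled Cpt2 L-/- Ppara KO were also set against those labelled Ppara KO. Between Cpt2 L-/- Ppara KO and Ppara KO livers, Dbp was higher and Arntl, Npas2 and Cry1 were lower, so 4 of 10 genes passed where 25.5% of all genes did. Npas2 entered this fit only through the Ppara KO libraries, and without it 3 of 9 genes passed. Dbp was at 27.1, 32.2, 86.2 and 84.3 CPM in the 4 Cpt2 L-/- Ppara KO livers, all above the Ppara KO livers, and its log2 fold change was 1.70 (SE 0.44, adjusted p = 0.0142 by edgeR). Arntl was at 7.86, 14.7, 3.96 and 2.42 CPM in these livers. Replicates 1 and 2 had the higher Arntl and the lower Dbp, replicates 3 and 4 the reverse, and Arntl overlapped with Ppara KO (log2 fold change -1.76, SE 0.60, adjusted p = 0.0423 by edgeR). Over all genes these livers did not pair in the way of their Arntl and Dbp levels, since replicate 1 stood apart from the other 3 (chi-square per degree of freedom 159.01 to 263.05) and replicate 2 was closer to replicates 3 (56.5) and 4 (97.2). Npas2 had 6, 20, 3 and 1 counts (log2 fold change -2.72, adjusted p = 0.0289 by edgeR, from -2.02 without Ppara KO replicate 3 to -3.94 without Cpt2 L-/- Ppara KO replicate 2), and Cry1 was at 4.82, 9.87, 7.98 and 7.07 CPM (log2 fold change -1.25, adjusted p = 0.0302 by edgeR). In a fit of these 2 groups alone, in which 111 of 12784 genes passed, no gene of the 10 did, with adjusted p of 0.0624 for Dbp, 0.0953 for Arntl, 0.0906 for Npas2 and 0.0967 for Cry1. Without Ppara KO replicate 2, Ppara KO replicate 3 or Cpt2 L-/- Ppara KO replicate 1, Dbp was the 1 gene that passed. Arntl also lost its call without control replicate 2 (0.0513), Cpt2 L-/- replicate 2 (0.0534) or 4 (0.0526) and Cpt2 L-/- Ppara KO replicate 3 (0.0950) or 4 (0.0811), and Npas2 without Cpt2 L-/- Ppara KO replicate 3 (0.0686) or 4 (0.0543). The macrophage marker sum was 140 to 178 FPKM in Cpt2 L-/- Ppara KO and 85.8 to 135 FPKM in Ppara KO livers, the endothelial sum 20.7 to 51.6 against 56.6 to 70.6 FPKM and the hepatocyte sum 24400 to 30600 against 33100 to 37300 FPKM, and their part in these differences was not tested. Of 5 markers each, 3 macrophage markers were higher, 3 endothelial markers were lower and 0 hepatocyte markers passed. The hepatocyte marker Ttr was at 2556 ± 286 against 2537 ± 924 CPM. Of the stellate cell markers 1 was higher and 1 lower, and 1 cholangiocyte marker was lower.

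The difference of Ppara KO from control and that of Cpt2 L-/- Ppara KO from Cpt2 L-/- livers were compared as an interaction. Of these groups control alone lies on its side of the split in Cd1d2 and Rps3a3, so the split cannot be told apart here. Dbp passed, with an interaction of 1.90 on the log2 scale (SE 0.61, adjusted p = 0.0339 by edgeR), and the other 9 genes did not, where 24% of all genes passed. The call of Dbp was lost without control replicate 3 (0.0670) or 4 (0.0735), Cpt2 L-/- replicate 1 (0.0715) or 4 (0.0688), Ppara KO replicate 2 (0.0608) or 3 (0.0648), and Cpt2 L-/- Ppara KO replicate 3 (0.0688) or 4 (0.0706). It was also lost with the replicate number as a block (0.0733) and without the filter on low counts (0.0938). Over all alternatives the adjusted p ranged from 0.00959 to 0.0938. Arntl had an interaction of -1.56 (adjusted p = 0.198 by edgeR), Per1 one of -1.34 (0.0677) and Per3 one of 1.75 (0.0699).

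Nfil3 was the 1 gene of the 10 that differed between Cpt2 L-/- Ppara KO livers and those labelled Cpt2 L-/-, where 18.4% of all genes passed. It was at 16.7, 42.1, 30.9 and 12.2 CPM in the former and at 6.60, 7.86, 9.23 and 9.35 CPM in the latter, without overlap. The log2 fold change of Nfil3 was 1.62 (SE 0.39, adjusted p = 0.0108 by edgeR), and the call held in each alternative. Arntl, at 4.84, 2.73, 1.53 and 3.67 CPM in Cpt2 L-/- livers, had a log2 fold change of 1.16 that did not pass (adjusted p = 0.203 by edgeR). In the same comparison 2 of 5 macrophage, 1 of 5 hepatocyte and 1 of 3 neutrophil markers tested were higher and 1 of 5 stellate cell markers was lower, among them Vsig4, at 30.8 ± 6.11 against 19.2 ± 4.83 CPM, and their part in Nfil3 was not tested.

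In Tsc1 L-/- livers, in which mTorc1 stays active through the fast, none of the 9 genes tested differed from control by edgeR, where 6.64% of all 13641 genes did. Npas2 was too low to be tested in this fit, which held no library of a Ppara-deficient liver, with 0 to 11 counts per library. DESeq2 called 0 of them, where it called 1339 of all 13641 genes. At an unadjusted p under 0.05, 1 gene passed, a threshold at which the share over all genes was not counted. That gene was Cry1, at 9.27, 14.8, 22.4 and 12.0 CPM in Tsc1 L-/- and at 13.8, 8.26, 5.70 and 6.33 CPM in control livers. The groups overlapped through control replicate 1 (log2 fold change 0.78, SE 0.30, adjusted p = 0.135 by edgeR), and without that library Cry1 passed (adjusted p = 0.0272, range over the alternatives 0.0272 to 0.369). None of the 9 had groups that did not overlap, against 12.1% of all genes. The 95% intervals of the log2 fold changes were -0.67 to 1.16 for Arntl, -0.40 to 0.40 for Clock and -0.97 to 0.42 for Dbp.

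Between livers labelled Cpt2 L-/- and control, in which the loss of mitochondrial long-chain fatty acid oxidation is compared, Per3 and Nfil3 were lower and the other 7 genes tested did not pass, where 31% of all genes passed. Nfil3 was at 6.60 to 9.35 CPM in Cpt2 L-/- and at 19.9, 14.9, 17.0 and 13.5 CPM in control livers. It was the 1 gene of the 9 whose groups did not overlap, against 30.9% of all genes, with a log2 fold change of -0.99 (SE 0.26, adjusted p = 0.00816 by edgeR). In a fit of all 24 libraries the call of Nfil3 was lost (adjusted p = 0.0857, range over the alternatives 0.000668 to 0.0857). The hepatocyte marker sum was 22600 to 32600 FPKM in Cpt2 L-/- livers, below the control range, and 2 of the 5 hepatocyte markers were lower. In the same comparison 2 of 5 stellate cell markers (Col3a1 at 10.2 ± 3.88 against 31.9 ± 13.01 CPM) and 1 of 5 cholangiocyte markers were lower, and 1 of 5 macrophage markers (Cd68 at 34.7 ± 12.05 against 8.53 ± 1.55 CPM) and 1 of 5 endothelial markers (Lyve1 at 44.1 ± 16.8 against 19.8 ± 9.47 CPM) were higher. The part of these markers in Nfil3 and Per3 was not tested. Per3 was at 15.8, 26.7, 23.0 and 13.1 CPM in Cpt2 L-/- livers, and control replicate 2, at 22.7 CPM, lay within that range. Its log2 fold change was -1.07 (SE 0.33, adjusted p = 0.0218 by edgeR). The call of Per3 was lost in the fit of all 24 libraries (0.106) and without control replicate 3 (0.0776) or 4 (0.0666) or Cpt2 L-/- replicate 1 (0.0625) or 4 (0.0689). Dbp, at 41.8, 83.3, 82.5 and 53.9 CPM, and Arntl overlapped with control, with log2 fold changes of -0.20 for each (adjusted p = 0.688 and 0.771 by edgeR).

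In DKO livers Tef and Per3 were lower than in control livers, and 2 of 9 genes passed where 36.4% of all genes did. Tef was at 197, 172, 167 and 175 CPM, below every control liver, with a log2 fold change of -0.59 (SE 0.15, adjusted p = 0.00425 by edgeR). Per3 was at 25.7, 18.5, 13.8 and 19.1 CPM, and it overlapped with control through control replicate 2 (log2 fold change -1.07, SE 0.33, adjusted p = 0.0188 by edgeR). Per3 lost its call without control replicate 3 (0.0636) or 4 (0.0521), without DKO replicate 3 (0.0571) and in the fit of all 24 libraries (0.0851). Against Tsc1 L-/- livers, Tef, Per3 and Cry1 were lower, 3 of 9 genes where 32.2% of all genes passed. Tef was at 244, 300, 321 and 250 CPM in Tsc1 L-/- livers, above every DKO liver, and fell by 0.64 on the log2 scale (SE 0.15, adjusted p = 0.00271 by edgeR). The calls of Tef in both comparisons held in each alternative, while the hepatocyte marker sum was 19900 to 22600 FPKM in DKO, 25200 to 33700 in Tsc1 L-/- and 36200 to 39100 in control livers, and the part of that difference in Tef was not tested. The marker in that sum whose level differed most in FPKM was Alb, at 20410 FPKM in control, 14570 in Tsc1 L-/- and 6629 in DKO livers, while Ttr was at 2302 FPKM in control and 2268 in DKO livers. Of the 5 hepatocyte markers, 2 were lower in DKO than in control. So were 5 of 5 stellate cell, 3 of 5 endothelial and 1 of 5 cholangiocyte markers, and of 5 macrophage markers 3 were lower and Cd68 was higher, at 92.6 ± 39.9 against 8.53 ± 1.55 CPM. The part of these markers in Tef and Per3 was not tested either.

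Per3 fell by 0.99 from Tsc1 L-/- to DKO livers (adjusted p = 0.0305 by edgeR) and Cry1 by 0.81 (adjusted p = 0.0483 by edgeR). Both calls were close to the threshold. In the same comparison 3 of 5 hepatocyte, 3 of 5 macrophage, 1 of 5 stellate cell and 1 of 5 cholangiocyte markers were lower and the macrophage marker Cd68 was higher, and their part in Per3 and Cry1 was not tested. That of Per3 was lost without Tsc1 L-/- replicate 2 (0.0990) or 3 (0.0720), without DKO replicate 2 (0.0689), 3 (0.0874) or 4 (0.0674). Nfil3 did not pass here (log2 fold change -0.63, adjusted p = 0.0688 by edgeR), but passed by DESeq2 (0.0450) and without Tsc1 L-/- replicate 2 (0.0325) or DKO replicate 3 (0.0128). Dbp, at 58.9, 58.2, 73.8 and 55.9 CPM in Tsc1 L-/- and 52.1, 49.2, 28.1 and 43.1 CPM in DKO livers, did not overlap but did not pass (log2 fold change -0.50, adjusted p = 0.266 by edgeR). The call of Cry1 was lost without any 1 of 10 libraries, with the adjusted p rising furthest without Tsc1 L-/- replicate 3 (0.194), and ranged from 0.0208 to 0.194 over the alternatives. Between DKO and Cpt2 L-/- livers none of the 9 genes passed by edgeR or by DESeq2, where 18.3% of all genes passed by edgeR and 3001 of 13641 by DESeq2. At an unadjusted p under 0.05, for which the share over all genes was not counted, 1 gene passed. That gene was Nfil3, at 14.3, 11.2, 19.6 and 6.99 CPM in DKO livers (log2 fold change 0.67, adjusted p = 0.0809 by edgeR), and without DKO replicate 4 it passed (adjusted p = 0.0148, range over the alternatives 0.0148 to 0.334). The interaction of the Tsc1 and Cpt2 deletions called none of the 9 genes by edgeR or DESeq2, where 2.38% of all genes passed by edgeR and 752 of 13641 by DESeq2. It called 0 at an unadjusted p under 0.05, for which the share over all genes was not counted.

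**Figure D3:**
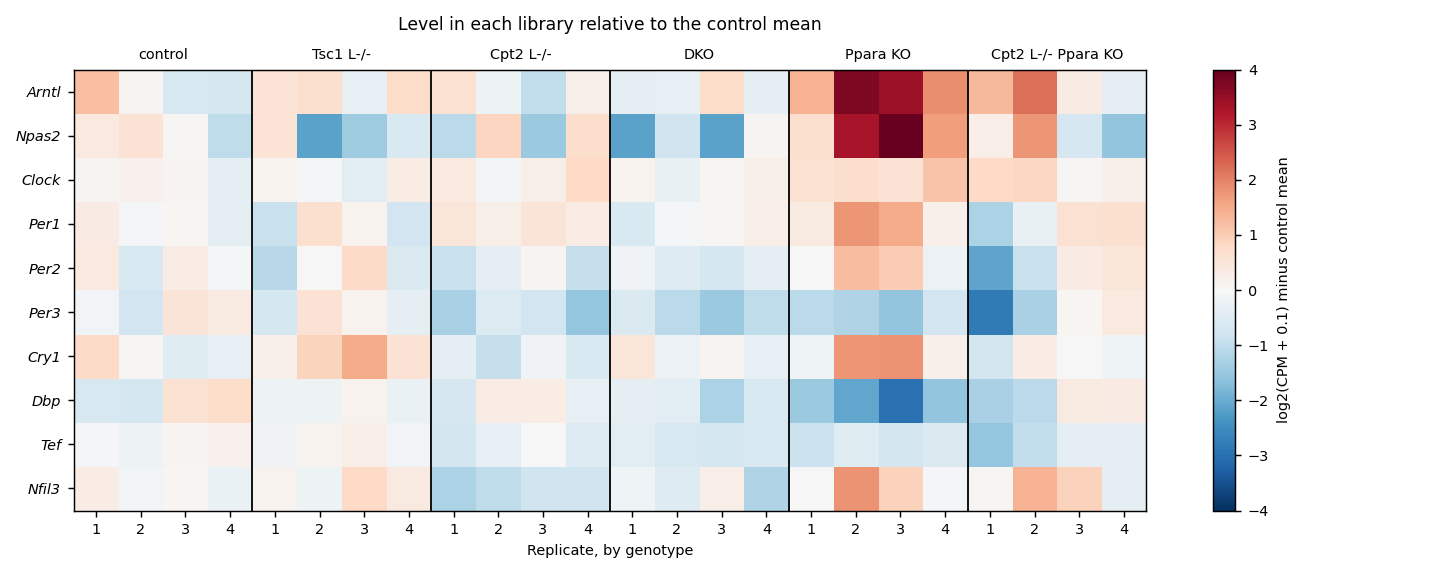
Level of each gene in each library (columns, by genotype and replicate) as log2(CPM + 0.1) minus the mean of the 4 control libraries, from blue for lower to red for higher. Ppara KO replicates 2 and 3 are reddest in Arntl and Npas2 and bluest in Dbp, and Cpt2 L-/- Ppara KO replicates 1 and 2 differ from replicates 3 and 4.

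The livers were also compared one by one. The log2 ratio of Arntl to Dbp in CPM was -4.43 ± 1.61 (SD, n = 4) in control, -3.88 ± 0.69 in Tsc1 L-/-, -4.42 ± 1.16 in Cpt2 L-/- and -3.83 ± 0.95 in DKO livers. It was 0.27 ± 1.75 in Ppara KO and -3.12 ± 1.96 in Cpt2 L-/- Ppara KO livers. The 4 Ppara KO livers were at -1.50, 1.44, 2.08 and -0.94. The 4 Cpt2 L-/- Ppara KO livers were at -1.78, -1.13, -4.45 and -5.12. Ppara KO livers 2 and 3 were the ones with more Arntl than Dbp per length of transcript as well, at log2 ratios of 0.74 and 1.38 in FPKM, and Cpt2 L-/- Ppara KO livers 1 and 2 lay near Ppara KO livers 1 and 4. Control livers were spread as well, at -2.55, -3.63, -5.67 and -5.86.

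Across the 24 libraries, log2 CPM of Arntl and Dbp had a Pearson correlation of -0.875, and deviations from the group means one of -0.834. With each group left out in turn, the correlation ranged from -0.923 to -0.707, the weakest value being that without the Ppara KO libraries. Per3 and Tef had a correlation of 0.859 (0.892 within groups), and Per1 and Per2 one of 0.769 (0.813 within groups). Per2 and Tef were at 0.487 over all libraries and 0.845 within groups. Arntl and Per2 were at 0.190 over all libraries and -0.212 within groups. These are descriptions over 24 libraries that share depth scaling, genotype groups and any shared hour of collection, and no test was made of them.

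**Figure D4:**
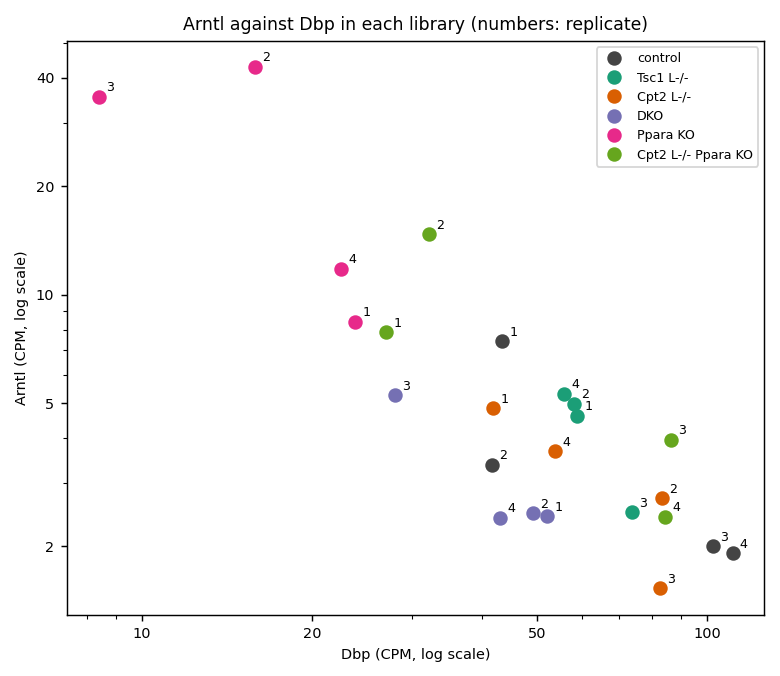
CPM of Arntl (vertical, log axis) against CPM of Dbp (horizontal, log axis) in each of 24 libraries, with color for the genotype and the replicate number beside each point. The libraries fall along 1 descending band, with Ppara KO replicates 2 and 3 at its upper left and control replicates 3 and 4 at its lower right.

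Other genes of the clock were taken from a list of 18, of which 17 were tested. Between Ppara KO and control livers 5 were higher and 2 lower, where 15.9% of all genes tested were higher and 13.2% lower, and their median log2 fold change was 0.16 against 0.01 over all genes. Rora, the receptor that activates Arntl through the RORE, rose from 71.7 ± 4.57 to 184 ± 52.3 CPM (log2 fold change 1.35, adjusted p = 0.000196 by edgeR). The Nr1d receptors, which repress it there, did not pass, with Nr1d1 at 59.0 ± 18.5 and 48.0 ± 12.6 CPM (adjusted p = 0.399 by edgeR) and Nr1d2 at 95.3 ± 12.9 and 99.5 ± 5.45 CPM (adjusted p = 0.794 by edgeR) in control and Ppara KO livers. Csnk1e, a kinase of Per proteins, rose from 7.92 ± 0.37 to 23.6 ± 9.37 CPM (log2 fold change 1.56, adjusted p = 0.000235 by edgeR). Bhlhe40 and Fbxw11, named after their values were seen, rose by 1.98 and 0.39 (adjusted p = 0.00778 and 0.0383 by edgeR). Hlf, the third activator of the Dbp family, fell from 78.8 ± 11.9 to 39.0 ± 5.94 CPM (log2 fold change -1.02, adjusted p = 0.00444 by edgeR), and Btrc, which marks Per proteins for degradation, had a log2 fold change of -0.81 (adjusted p = 0.00548 by edgeR). Bhlhe41 (0.64, adjusted p = 0.279 by edgeR) and Cry2 (0.62, adjusted p = 0.112 by edgeR) did not pass.

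In the libraries labelled Cpt2 L-/-, 5 of these 17 genes were higher and 2 were lower than in control, where 31% of all genes passed. Hlf was at 43.4 ± 16.3 CPM (log2 fold change -0.87, adjusted p = 0.00272 by edgeR), Csnk1e at 13.3 ± 1.57 CPM (0.74, 0.00114) and Rora at 97.9 ± 12.7 CPM (0.45, 0.00630). Bhlhe41, a repressor at E-boxes, was at 15.3 ± 2.64 CPM against 4.10 ± 3.20 CPM in control livers (1.89, 0.0142), and Csnk1d (0.57, 0.00158) and Btrc (-0.42, 0.00697) also passed. In DKO livers 4 were higher and 2 lower than in control, where 36.4% of all genes passed, among them Hlf at 43.0 ± 7.01 CPM (log2 fold change -0.86, adjusted p = 0.00257 by edgeR). Nr1d1 was lower in Cpt2 L-/- Ppara KO livers, at 28.1 ± 9.69 CPM, than in those labelled Cpt2 L-/-, at 63.1 ± 12.1 CPM (log2 fold change -1.16, adjusted p = 0.00763 by edgeR), and than in Ppara KO livers (log2 fold change -0.76, adjusted p = 0.0410 by edgeR). Its paralog Nr1d2 was at 135.3 ± 15.3 CPM in Cpt2 L-/- Ppara KO livers, higher than in Ppara KO livers (log2 fold change 0.45, adjusted p = 0.0297 by edgeR) and not called against Cpt2 L-/- (0.37, 0.0788). Of the 17 genes, 0 were higher and 3 lower against Cpt2 L-/-, where 18.4% of all genes passed, and 1 was higher and 3 were lower against Ppara KO, where 25.5% passed. Nr1d2 was lower in DKO livers, at 76.9 ± 5.85 CPM, than in Cpt2 L-/- livers, at 105 ± 4.45 CPM (log2 fold change -0.43, adjusted p = 0.0153 by edgeR), and than in Tsc1 L-/- livers (-0.35, 0.0271). From Cpt2 L-/- to DKO livers 1 of the 17 genes was higher and 2 were lower, where 18.3% of all genes passed. From Tsc1 L-/- to DKO livers 1 was higher and 5 were lower, where 32.2% passed. Against control, 1 was higher and 0 were lower in Tsc1 L-/- livers, where 6.64% passed.

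A second list held 8 genes that the clock is known to drive in liver, of which 7 were found and tested. Between Ppara KO and control livers 3 were lower and none was higher, where 13.2% of all genes were lower and 15.9% higher, with a median log2 fold change of -0.46 against 0.01 over all genes. Pdxk, which makes the active form of vitamin B6 and is a target of Dbp, Tef and Hlf, fell from 88.4 ± 5.03 to 38.6 ± 12.3 CPM (log2 fold change -1.20, adjusted p = 0.00666 by edgeR). Usp2, a deubiquitinase, and Nr1i3, the xenobiotic receptor CAR, named because they complete the count, fell by 1.61 and 1.28 on the log2 scale (adjusted p = 0.0260 and 0.00548 by edgeR). Pdxk was also lower in the libraries labelled Cpt2 L-/-, at 46.7 ± 13.8 CPM (log2 fold change -0.93, adjusted p = 0.0139 by edgeR), as the 1 of 7 that passed where 31% of all genes did. In DKO livers Pdxk was at 82.9 ± 15.04 CPM and did not pass against control (-0.07, 0.852). It was at 120 ± 58.6 CPM in Tsc1 L-/- and 38.6 ± 17.2 CPM in Cpt2 L-/- Ppara KO livers. The group means of Pdxk thus divided as Cd1d2 and Rps3a3 did, and the part of that split in these calls was not tested.

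The genes whose log2 CPM followed a member most closely over the 24 libraries were sought among 12251 others with a mean of at least 1 CPM. For Arntl they were Stx6 (Pearson r 0.884), Snx24 (0.879) and Lgalsl (0.878). For Dbp they were Gpr146 (0.876), Fads3 (0.851) and Zfp395 (0.839). For Npas2 they were Mrap (0.832), Insc (0.827) and Slc7a6 (0.817). For Per2 they were Rexo1 (0.867), Epas1 (0.857) and Cyp2d22 (0.841).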

How the data were processed

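Liver RNA was sequenced from stranded mRNA libraries as single 75-base reads. The authors deposited raw read counts per gene, and FPKM values that equal the count divided by gene length and by the library's total count. The submitters' processing notes name Bowtie 0.12.2, TopHat, STAR 2.5, STAR-Fusion, HTSeq 0.6.1, DESeq2 and edgeR, without their roles, and list mm8 and mm9, while the coordinates in the count table are those of GRCm38. Reads of overlapping genes and paralogs may be shared.

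The 10 genes, the gene lists and the comparisons were chosen with earlier results of these data known. Genes named beyond the 10 were those of the clock lists that passed in at least 3 of 8 pairwise comparisons, with Nr1d1, Nr1d2, Hlf, Cry2 and Bhlhe41 in any case. Bhlhe40, Fbxw11, Usp2 and Nr1i3 fall outside this rule and were named after their values were seen. One gene of these lists is included in their counts and its values are not reported here. Counts were tested in R 4.3.3 with edgeR 4.0.16 (filterByExpr with a minimum count of 10 and minimum total of 15, TMM, robust quasi-likelihood fit, Benjamini-Hochberg). One fit of 16 libraries held control, Tsc1 L-/-, Cpt2 L-/- and DKO, and another held control, Cpt2 L-/-, Ppara KO and Cpt2 L-/- Ppara KO, so they share 8 libraries and their results are not independent. CPM were scaled by TMM over 24 libraries, and log2 CPM used a prior count of 2. Replicates are taken to be separate mice, which the labels do not state, so p-values measure the spread between these samples. No duplicates were found among 36 library pairs of the same group (lowest chi-square per degree of freedom 24.1). Alternatives were RLE factors, no filter, DESeq2 1.42.0, all 24 libraries in one fit, the 2 groups alone, the replicate number as a block, each library left out in turn, and Cpt2 L-/- libraries in place of control for Ppara KO, which was added after seeing the data. The scripts were tested on simulated data. There edgeR recovered 57% of genes with a log2 change of 1 for Tsc1 L-/- against control and 35% for Ppara KO against control. With a log2 change of 2 it recovered 86% and 79%. A gene that did not pass may therefore still differ. Figures used matplotlib 3.10.9.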

Additional observations from a re-analysis of the deposited data

Results flagged for a closer look

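In groups of 4 libraries, the highest or lowest library was set against the gap to its nearest neighbour over 126 groups of values (21 genes in 6 groups), where chance alone marks about 1 in 20. The libraries listed here are about as many as chance alone would mark. Of the 10 genes, Arntl in DKO replicate 3 (5.27 CPM, against 2.40 to 2.47 in the other DKO livers), Clock in control replicate 4 (24.4 CPM, against 34.6 to 36.6) and Dbp in Tsc1 L-/- replicate 3 (73.8 CPM, against 55.9 to 58.9) stood apart. Of the other clock genes, the highest library stood apart for Btrc in control (24.0 CPM), Nr1d1 in Cpt2 L-/- Ppara KO (42.5 CPM) and Pdxk in Tsc1 L-/- (208 CPM).

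The interaction of the Cpt2 and Ppara labels passed by edgeR for Dbp (1.90 on the log2 scale, adjusted p = 0.0339). It also passed for Bhlhe40 (-2.57, adjusted p = 0.0153), Bhlhe41 (-1.74, 0.0418), Btrc (0.88, 0.0299), Csnk1d (-0.71, 0.0267), Csnk1e (-1.41, 0.00841), Fbxw11 (-0.57, 0.0411) and Rora (-0.98, 0.0228), where 24% of all genes passed. Among its groups control alone lies on its side of the split in Cd1d2 and Rps3a3. A part of that split cannot be told apart from the genotypes here. The call of Dbp was lost in 10 of 21 alternatives, with an adjusted p of up to 0.0938.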

How the results depend on the processing

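Of 2058 recomputed log2 fold changes of the 10 genes, 1935 kept their side of the threshold, and none that passed changed its direction. Arntl and Dbp in Ppara KO against control, Nfil3 in Cpt2 L-/- Ppara KO against Cpt2 L-/-, and Tef in DKO against control and against Tsc1 L-/- passed in each alternative run. The number of the 10 genes that passed moved as follows, and the cause was not tested. For Ppara KO against control it was 8 in place of 6 by DESeq2 and with all 24 libraries in one fit (Cry1 and Per3 added), 7 in the fit of 2 groups and 5 without the filter (Per1 lost), while 4415, 4602, 3559 and 3450 of all genes passed in these, against 3952. DESeq2 also added Tef in Cpt2 L-/- against control (0.0406), Dbp in DKO against control (0.0253), Nfil3 in DKO against Tsc1 L-/- (0.0450) and Per1 in Cpt2 L-/- Ppara KO against Ppara KO (0.0285). In these comparisons, in that order, 4588, 5258, 4650 and 4110 of all genes passed by DESeq2, against 4235, 4972, 4392 and 3475 by edgeR. Without the filter it was 1 in place of 2 for Cpt2 L-/- against control, 1 in place of 3 for DKO against Tsc1 L-/-, 2 in place of 4 for Cpt2 L-/- Ppara KO against Ppara KO and 0 in place of 1 for the interaction of Cpt2 and Ppara. With all 24 libraries in one fit it was 0 for Cpt2 L-/- against control, 1 in place of 2 for DKO against control, 1 for DKO against Tsc1 L-/- and 2 for the interaction of Cpt2 and Ppara, for which DESeq2 gave 3. In the fit of 2 groups it was 0 for Cpt2 L-/- Ppara KO against Ppara KO, where 111 of all genes passed against 3475, and 4 in place of 3 for DKO against Tsc1 L-/- (Dbp added, 0.0489). Over all genes, Cpt2 L-/- against control gave 2798 in the fit of 24 libraries and 3851 without the filter against 4235, and DKO against Tsc1 L-/- gave 2975 and 3948 against 4392. DKO against Tsc1 L-/- gave 3780 in the fit of 2 groups. DKO against control gave 3482 in the fit of 24 libraries, against 4972. Cpt2 L-/- Ppara KO against Ppara KO gave 2686 without the filter, against 3475. The interaction of Cpt2 and Ppara gave 2604 without the filter, 4087 in the fit of 24 libraries and 3861 by DESeq2, against 3270. With single libraries left out, the number of the 10 genes that passed ranged from 0 to 1 for Tsc1 L-/- against control and for DKO against Cpt2 L-/-, from 1 to 3 for Cpt2 L-/- against control, DKO against control and DKO against Tsc1 L-/-, from 3 to 7 for Ppara KO against control (3 without control replicate 4 or Ppara KO replicate 3), from 1 to 5 for Cpt2 L-/- Ppara KO against Ppara KO and from 0 to 2 for the interaction of Cpt2 and Ppara. Calls over all genes moved as well. For Ppara KO against control they were 3044 without control replicate 4 and 2938 without Ppara KO replicate 3. In the same order of comparisons, they ranged from 583 to 967, 1428 to 2755, 3426 to 4521, 4121 to 5199 and 3708 to 4416. The last ranges were 2938 to 4704, 1728 to 4125 and 2396 to 3767. The correlation of Arntl and Dbp was -0.707 without the Ppara KO libraries.

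The replicate numbers are shared between groups. In one fit, correlations of deviations ran from -0.298 to 0.214 for same-numbered libraries and from -0.237 to 0.285 for the others. In the other fit they ran from -0.115 to 0.262 (mean 0.05) and from -0.319 to 0.303 (mean -0.017). Such correlations cannot tell whether same-numbered libraries share a day or batch, which the labels do not give. With the number as a replicate block, the genes that passed were 0 in place of 1 for the interaction of Cpt2 and Ppara (Dbp, adjusted p = 0.0733), 5 in place of 6 for Ppara KO against control (Per1 lost, adjusted p = 0.0650), and as many as without the block in the other 8 comparisons, though in DKO against Tsc1 L-/- Per3 was lost (0.0699) and Nfil3 added (0.0364). Npas2, with 0 to 20 counts per library outside Ppara KO, is limited by depth, and intervals and floors of counts would cover counting error only.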
